A study of Mus musculus with 18 samples.

Results

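The 36 genes described here build and run meiotic prophase in the mouse, and their promoters were followed for the histone mark H3K4me3 in fetal male germ cells, which do not enter meiosis until after birth. They were taken as a list of named genes out of 21887 coding genes of the annotation, and all 36 were found in it. By role, 9 encode cohesin and axis proteins (Rec8, Stag3, Smc1b, Rad21l, Sycp2, Sycp3, Hormad1, Hormad2, Trip13), 5 synapsis proteins (Sycp1, Syce1, Syce2, Syce3, Tex12) and 5 factors of break formation (Spo11, Mei1, Mei4, Rec114, Prdm9). A further 7 act in strand exchange (Dmc1, Psmc3ip, Mnd1, Hsf2bp, Meiob, Spata22, Tex15), 6 in crossover formation (Msh4, Msh5, Mlh3, Rnf212, Rnf212b, Hfm1), 3 in telomere attachment (Majin, Terb1, Terb2) and 1, Stra8, in meiotic entry.

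H3K4me3 was profiled by CUT&RUN, in which antibody-bound nuclease releases the marked chromatin, in E17.5 prospermatogonia (embryonic age). The cells carried an Oct4-GFP reporter and were taken as GFP positive, and each library came from 4000 nuclei of cryopreserved cells. The genotypes were Tet1-/- (KO), Tet1 HxD homozygous (HxD) and Tet1+/+ (WT), with 3 biological replicates each and 1 batch label for all. TET1 oxidises 5-methylcytosine, and the HxD allele is altered in the catalytic motif and known to be catalytically inactive. The series title asks what TET1 does in male germ cell chromatin apart from catalysis, so KO and HxD were each set against WT and against each other.

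In meiotic prophase, cohesin and axis proteins hold sister chromatids in loops, programmed double-strand breaks are made along the axes, and strand exchange with the homologous chromosome turns some breaks into crossovers. The synaptonemal complex joins the homologues while telomeres are held at the nuclear envelope. In the male these genes are known to act from the first wave of spermatogenesis on, after retinoic acid induces STRA8. H3K4me3 is a mark of active promoters and also of poised, CpG-rich promoters, so a peak does not by itself say that a gene is transcribed.

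Several of these promoters share short motifs close to the start, and 4 that hold both an E-box and an E2F6 motif are shown first, followed by Syce1 and Stra8, which hold none of the motifs searched and are described further on. E2F6 and the E-box factors MGA and MAX are known subunits of a Polycomb complex that keeps germline genes silent in other cells. Sequences are RefSeq promoters of GRCm38.p6 (mm10), 250 bases before and 50 bases from the start on, 5′ to 3′ on the gene's strand, with motif matches in capitals: the E-box CACGTG, the E2F6 motif GCGGGAA, the cAMP response element TGACGTCA and the STRA8 motif CNCCTCAG, on both strands. Sycp3 lies at chr10:88459337-88459636 on the plus strand, Hormad1 at chr3:95559429-95559728 on the plus strand and Stag3 at chr5:138280259-138280558 on the plus strand. Tex12 lies at chr9:50561219-50561518 on the minus strand, Syce1 at chr7:140787805-140788104 on the minus strand and Stra8 at chr6:34920698-34920997 on the plus strand.
Sycp3: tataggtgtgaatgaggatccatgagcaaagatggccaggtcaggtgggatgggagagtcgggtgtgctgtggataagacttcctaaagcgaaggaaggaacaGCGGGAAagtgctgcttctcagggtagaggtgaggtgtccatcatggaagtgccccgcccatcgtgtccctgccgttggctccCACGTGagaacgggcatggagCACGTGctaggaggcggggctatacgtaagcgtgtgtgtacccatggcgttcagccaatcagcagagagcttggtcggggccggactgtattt
Hormad1: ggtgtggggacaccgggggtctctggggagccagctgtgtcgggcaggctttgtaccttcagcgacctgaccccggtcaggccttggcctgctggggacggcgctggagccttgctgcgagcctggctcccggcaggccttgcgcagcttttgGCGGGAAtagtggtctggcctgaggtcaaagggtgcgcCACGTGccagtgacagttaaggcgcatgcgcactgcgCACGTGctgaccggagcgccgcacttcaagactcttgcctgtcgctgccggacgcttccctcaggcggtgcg
Stag3: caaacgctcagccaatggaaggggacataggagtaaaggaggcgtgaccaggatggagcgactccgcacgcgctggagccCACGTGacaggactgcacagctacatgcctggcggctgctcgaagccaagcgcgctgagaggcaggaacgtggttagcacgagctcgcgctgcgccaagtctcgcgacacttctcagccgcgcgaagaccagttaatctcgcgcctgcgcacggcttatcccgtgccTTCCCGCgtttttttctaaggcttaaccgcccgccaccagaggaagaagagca
Tex12: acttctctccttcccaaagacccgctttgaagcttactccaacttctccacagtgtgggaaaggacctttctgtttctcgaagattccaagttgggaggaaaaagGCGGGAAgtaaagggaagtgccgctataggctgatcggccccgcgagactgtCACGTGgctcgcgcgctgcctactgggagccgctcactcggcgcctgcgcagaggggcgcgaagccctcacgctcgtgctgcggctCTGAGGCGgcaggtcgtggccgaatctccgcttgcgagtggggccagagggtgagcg
Syce1: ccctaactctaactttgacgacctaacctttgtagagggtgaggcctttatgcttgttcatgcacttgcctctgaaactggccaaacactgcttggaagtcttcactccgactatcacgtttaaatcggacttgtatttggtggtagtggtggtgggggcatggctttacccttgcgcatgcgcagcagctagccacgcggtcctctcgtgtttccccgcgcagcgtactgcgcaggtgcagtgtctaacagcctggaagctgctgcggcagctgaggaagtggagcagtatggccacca
Stra8: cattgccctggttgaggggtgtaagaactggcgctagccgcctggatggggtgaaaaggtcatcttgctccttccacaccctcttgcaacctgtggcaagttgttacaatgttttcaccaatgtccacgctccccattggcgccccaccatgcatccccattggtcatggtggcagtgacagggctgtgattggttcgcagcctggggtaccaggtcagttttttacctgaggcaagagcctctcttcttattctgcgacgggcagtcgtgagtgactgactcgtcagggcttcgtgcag

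RefSeq promoters were at hand for 31 of the 36 genes, not for Spo11, Meiob, Tex15, Majin or Terb2. The E2F6 motif was in 12 of 31 (38.7%), against 6.14% of all 17492 coding promoters of the table and 8.27% of the 12593 of these that had a peak within 1 kb of the start in 3 or more libraries. The 12 genes were Stag3, Smc1b, Sycp3, Hormad1, Syce2, Tex12, Rec114, Prdm9, Hsf2bp, Spata22, Msh5 and Rnf212. An E-box was in 8 of 31 (25.8%), against 7.94% of all and 10.1% of marked promoters. Both motifs stood together in 7 (22.6%), against 0.589% and 0.818%: Stag3, Sycp3, Hormad1, Syce2, Tex12, Rec114 and Rnf212. Sycp3 and Hormad1 each had a pair of E-boxes, whose first bases were 64 and 43 bases before the start of Sycp3 and 59 and 22 bases before that of Hormad1. The STRA8 motif was in 7 (22.6%, against 8.63% and 9.33%), among them Prdm9, Syce2 and Tex12, and the cAMP response element in 0 (against 2.38% and 3.11%). In Syce2 and Prdm9 a STRA8 match shared bases with an E2F6 match. CpG density, as observed over expected CpG in the 300 bases, had a median of 0.71 over the 31 promoters (0.32 to 1.14), against 0.60 over all and 0.75 over marked promoters. Across the 31 genes this ratio and the mean covered length had a Pearson correlation of 0.17 and a Spearman correlation of 0.18, against 0.29 and 0.33 across the 12593 marked promoters and 0.63 and 0.67 across all 17492, points that share the same 9 libraries. Over the 30 of the 31 genes that were marked at the start in 3 or more libraries the values were 0.11 and 0.13. The motif counts describe sequence and were not compared between genotypes.

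The measurements were the positions of called peaks, not read counts. The lists held 69901 to 80232 peaks in KO, 49624 to 67925 in HxD and 83586 to 128701 in WT, so longer lists stood on the WT side. The depth in reads is unknown from these files. Since the gene table gives no strand, the marked end of a gene was the end with more covered base pairs (bp) within 1 kb over all 9 libraries. A promoter peak was any peak within 1 kb of it, and breadth was the number of bp covered by peaks within 5 kb. The targeted gene, Tet1, had a breadth of 2732, 3331 and 4851 bp in KO, 3495, 3260 and 2580 bp in HxD, and 2570, 2415 and 3315 bp in WT, which does not check the labels because a promoter can remain beside an altered coding part. Germ cell markers had a promoter peak at 8 to 11 of 12 genes in KO, 8 to 11 in HxD and 8 to 10 in WT, and summed to 21817 to 33226 bp in KO, 16498 to 26997 bp in HxD and 17370 to 22171 bp in WT. Ddx4, Dazl, Pou5f1, Tdrd1, Dnmt3l, Dppa3 and Sall4 were marked in all 9 libraries, Piwil4 in 7, Mael in 6, Nanos2 in 5, Nanos3 in 4 and Piwil2 in 0, with 0 bp. Sertoli cell markers had summed breadths of 20317 to 29548 bp in KO, 18199 to 28794 bp in HxD and 28824 to 33567 bp in WT over 8 genes, 6 to 8 of them marked. Leydig and interstitial markers (9 genes, 4 to 6 marked) summed to 12980 to 25509 bp in KO, 18018 to 23628 bp in HxD and 19002 to 29942 bp in WT, with Cyp17a1 and Hsd3b1 at 0. Endothelial and blood markers (7 genes, 4 to 5 marked) summed to 4459 to 7870 bp in KO, 6429 to 7775 bp in HxD and 8042 to 10242 bp in WT, with Ptprc at 0. The part of other cells in the results was not tested, and a mark in fewer cells cannot be told apart from less mark per cell.

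Most of the meiotic genes already carried H3K4me3 at this stage. In each library 30 to 35 of the 36 had a promoter peak, with 30, 34 and 35 in KO, 33, 33 and 32 in HxD, and 33, 30 and 33 in WT. As a share this was 83.3% to 97.2%, against 66.6% to 74.8% of all coding genes. A peak in all 9 libraries was found at 25 of 36 (69.4%), against 13043 of 21887 coding genes (59.6%). With each list cut to the length of the shortest, the count was 13 of 36 (36.1%), against 35.4% of coding genes. Where they were marked, the domains were of moderate length. Over the 35 genes with a promoter peak in 3 or more libraries, the median of the gene means was 1630.0 bp in KO, 1374.7 bp in HxD and 1530.0 bp in WT, below the medians of the 16000 coding genes tested in the same way, which were 2002.0 bp, 1808.5 bp and 1886.7 bp in the same order of genotypes.

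**Figure D1:**
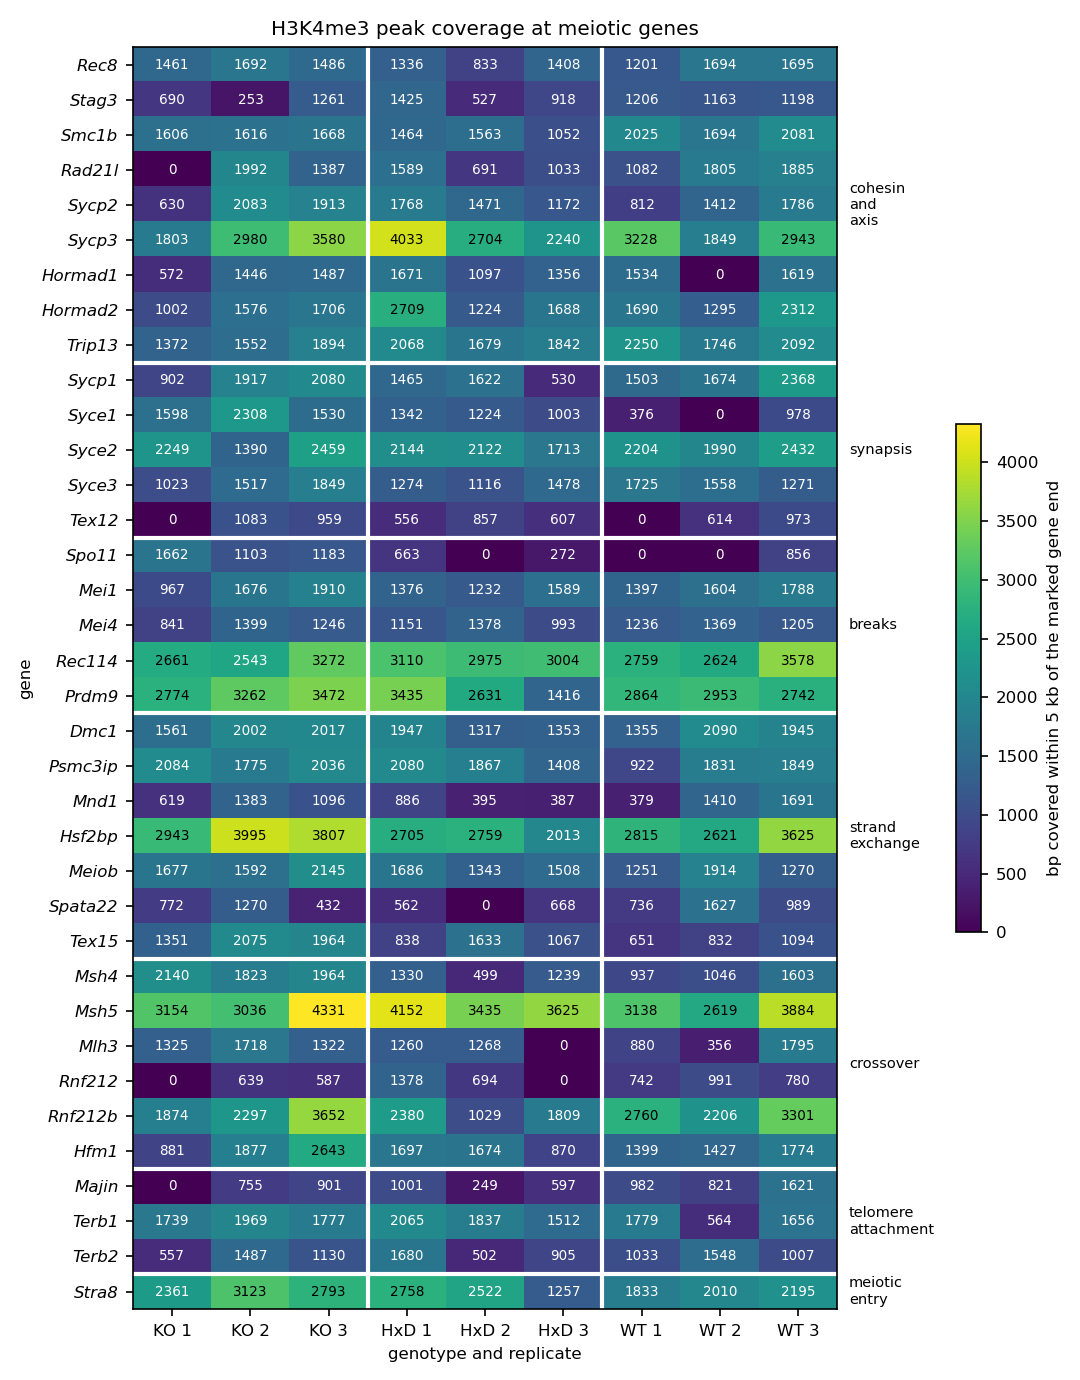
Breadth in bp within 5 kb of the marked end (colour and printed number) for the 36 meiotic genes in rows, grouped by role, and the 9 libraries in columns. Sycp3, Prdm9, Hsf2bp, Msh5 and Rec114 form bright rows in all 3 genotypes, and Syce1 and Spo11 hold their highest values in KO columns.

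A smaller share of the meiotic genes than of all marked genes was covered at 1 kb downstream of the start. At 300 bp downstream of the RefSeq start a peak covered 84.9% of the 31 genes in KO, 77.4% in HxD and 77.4% in WT (means of 3 libraries), against 87.4%, 86.3% and 80.9% of the 12593 marked genes. At 1 kb downstream the shares were 29.0% in KO, 25.8% in HxD and 32.3% in WT, against 52.2%, 46.4% and 50.1%. The 12593 genes were required to have a peak in 3 libraries and the 31 were not. Of the 31, 30 met that rule and Mei1 did not, so the bases of the shares differ slightly. At 2 kb upstream they were 10.8% in KO, 11.8% in HxD and 10.8% in WT, against 6.5%, 5.3% and 6.7%. The downstream side held more covered bp than the upstream side in 14 of 31 genes (45.2%), against 65.3% of the 12593. The other genes included Rad21l (1273.8 bp upstream, 0.0 bp downstream) and Msh4 (1341.2 and 56.7 bp), whose marked ends lay 2089 and 1247 bp from the RefSeq start. They also included Msh5 and Hsf2bp, with 2388.6 and 2338.8 bp on the side of a neighbouring gene. The part of such genes in the share was not tested. Median covered lengths over the 9 libraries were 768.7 bp upstream and 766.6 bp downstream in the meiotic genes, against 821.1 bp and 1011.3 bp.

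**Figure D2:**
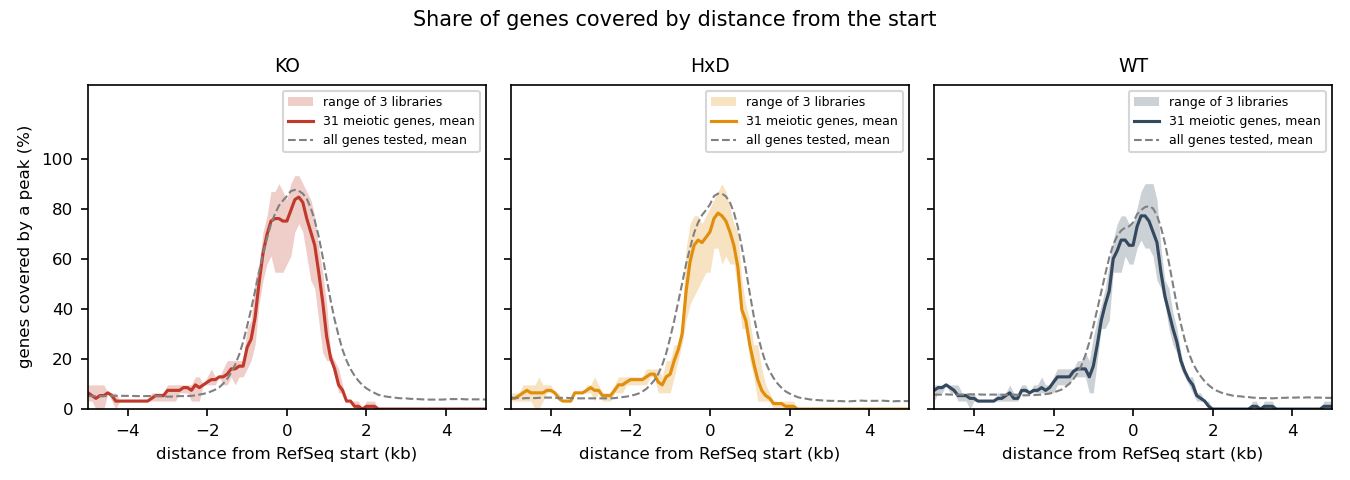
Share of genes covered by a peak (vertical axis, %) by distance from the RefSeq start (horizontal axis, kb, downstream to the right) in KO, HxD and WT. The coloured line is the mean of 3 libraries over 31 meiotic genes, the band is the range of the libraries and the dashed line is the mean over the 12593 marked genes, which at 1 kb lies above the band in each panel.

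For 7 of the 31 genes the marked end was over 1 kb from the RefSeq start (22.6%, against 16.6% of 12729 coding genes tested), and their values need care. The marked end of Mei1, which supports break formation, was the 3′ end, 44341 bp from its start and 1081 bp from the neighbouring gene Ccdc134. At the start itself Mei1 had 560, 0 and 293 bp in KO, 0 bp in all 3 HxD libraries, and 0, 0 and 304 bp in WT, so most libraries had no peak there. Rec114, a partner of MEI4, was measured at an end 81147 bp from the start and 243 bp from the ion channel gene Hcn4. At its own start Rec114 was covered over 416, 1201 and 1385 bp in KO, 1303, 893 and 1064 bp in HxD, and 870, 1154 and 2091 bp in WT, in every library and with overlapping genotypes. For Rnf212b, a ring finger factor of crossover sites, the distance was 30809 bp, and its marked end lay 1455 bp from Slc7a8. At the start of Rnf212b there were 547, 2003 and 1068 bp in KO, 1973, 2217 and 1920 bp in HxD, and 1326, 1312 and 1459 bp in WT. Every HxD library was above every WT library there, but the difference of 671.0 ± 342.7 bp (SE) did not pass (adjusted p = 0.545 by limma). How many genes show such a gap at their RefSeq starts was not counted. The marked end of Stag3, a cohesin subunit, lay 7995 bp before the start and inside Gal3st4. At the Stag3 start coverage was 2937, 1995 and 2617 bp in KO, 2730, 1735 and 1912 bp in HxD, and 2648, 1840 and 1759 bp in WT, so all 9 libraries had peaks there. More of it lay upstream of that start (mean 1459.3 bp) than downstream (782.7 bp), and the part of a neighbouring gene was not tested. The distances were 3181 bp for Spata22, 2089 bp for Rad21l and 1247 bp for Msh4, within the 5 kb windows. Other promoters lay close to a neighbour's gene end: Trip13 was 6 bp from Brd9, Terb2 83 bp from Patl2, Smc1b 103 bp from Ribc2, Psmc3ip 887 bp from Retreg3, Terb1 1141 bp from Nae1, Msh4 1151 bp from Rabggtb and Hsf2bp 1267 bp from Rrp1b, and there coverage cannot be assigned to a single gene.

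**Figure D3:**
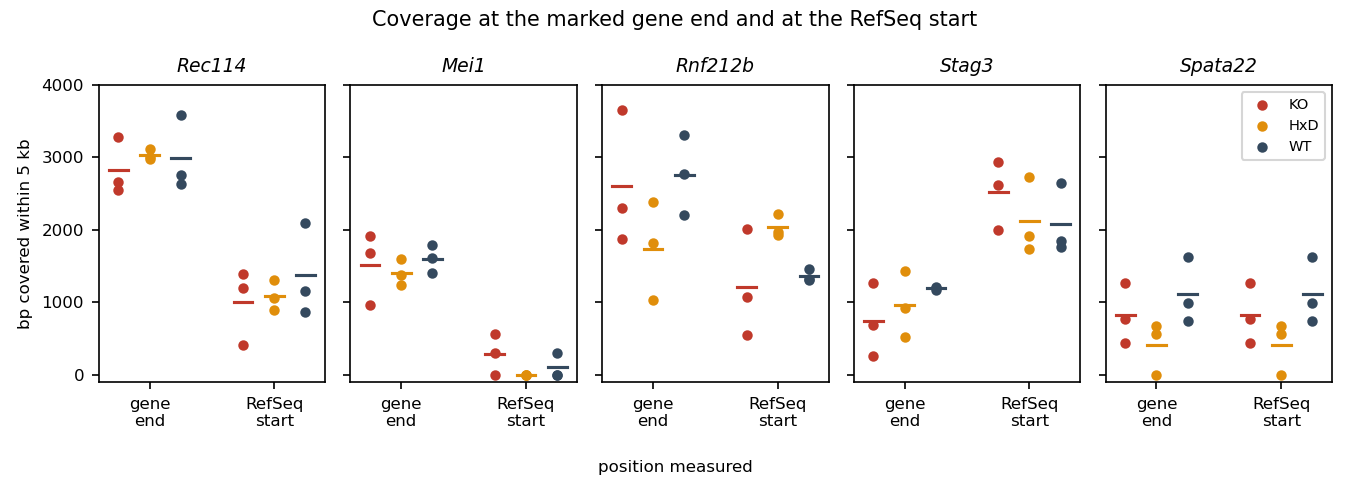
Breadth in bp within 5 kb (vertical axis) at the marked gene end and at the RefSeq start for 5 genes, with 1 point per library and a line at the mean of KO, HxD and WT. Rec114 and Mei1 lose most of their coverage at the start, Stag3 has more there, and Spata22 has the same values at both.

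Among cohesin and axis genes, Sycp3, which encodes a filament protein of the axis, had the broadest domain, with 1803, 2980 and 3580 bp in KO, 4033, 2704 and 2240 bp in HxD, and 3228, 1849 and 2943 bp in WT. The genotypes overlapped fully. Smc1b, the meiotic SMC subunit of cohesin (chromosome 15, 85064689 to 85131957), had 1606, 1616 and 1668 bp in KO, 1464, 1563 and 1052 bp in HxD, and 2025, 1694 and 2081 bp in WT. Every KO and every HxD library lay below every WT library, yet the differences of -303.3 ± 283.5 bp for KO and -573.7 ± 283.5 bp for HxD (SE) did not pass limma's test (adjusted p = 0.654 and 0.49), and with lists of equal length that of KO was 61.7 bp. Stag3 at its marked end had 690, 253 and 1261 bp in KO, 1425, 527 and 918 bp in HxD, and 1206, 1163 and 1198 bp in WT. The difference between KO and WT was -454.3 bp there but 434.0 bp at the RefSeq start, and neither passed. Trip13, whose ATPase removes HORMAD proteins from synapsed axes, had 1372, 1552 and 1894 bp in KO, 2068, 1679 and 1842 bp in HxD, and 2250, 1746 and 2092 bp in WT. KO and WT overlapped. A single library without a peak set apart Hormad1 and Rad21l. Hormad1, an axis protein that marks unsynapsed chromosomes, had 572, 1446 and 1487 bp in KO, 1671, 1097 and 1356 bp in HxD, and 1534, 0 and 1619 bp in WT. Rad21l, a meiotic kleisin, had 0, 1992 and 1387 bp in KO, 1589, 691 and 1033 bp in HxD, and 1082, 1805 and 1885 bp in WT. The means of Rec8, Sycp2 and Hormad2 lay between 1428.0 and 1546.3 bp in KO, 1192.3 and 1873.7 bp in HxD, and 1336.7 and 1765.7 bp in WT. Rec8 is the other meiotic kleisin, and SYCP2 and HORMAD2 are axis proteins. Over the 9 genes, 4 had a higher and 5 a lower mean in KO than in WT, and likewise in HxD.

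Among synapsis genes, Syce1 stood out. Its product is a central element protein of the synaptonemal complex, and the gene (ID 74075) lies on chromosome 7, 140777229 to 140787854. Breadth was 1598, 2308 and 1530 bp in KO, 1342, 1224 and 1003 bp in HxD, and 376, 0 and 978 bp in WT. Every KO library exceeded every HxD library, and every HxD library exceeded every WT library. In KO and HxD each library had a peak of 1003 to 1758 bp across the start, while WT replicate 1 had 376 bp just downstream, WT replicate 2 none and WT replicate 3 separate peaks of 641 and 337 bp. The difference was 1360.7 ± 313.0 bp for KO (SE, 95% interval 691.2 to 2030.1 bp) and 738.3 ± 313.0 bp for HxD (68.9 to 1407.8 bp). By limma with Benjamini-Hochberg adjustment over 16000 genes neither passed 0.05 (adjusted p = 0.102 and 0.417). For KO it did with lists of equal length (1517.0 bp, adjusted p = 0.0201) and with libraries centred on their means (1324.8 bp, adjusted p = 0.0214), out of a range of adjusted p from 0.0201 to 0.359 over the alternatives. These alternatives called more genes in general, 293 of 16000 (1.83%) and 464 of 16000 (2.9%), against 1 in the fit of the lists as deposited. No other synapsis gene had KO or HxD libraries wholly above or below those of WT. Syce2, a central element protein with the broadest domain of the group, had 2249, 1390 and 2459 bp in KO, 2144, 2122 and 1713 bp in HxD, and 2204, 1990 and 2432 bp in WT. Tex12, the partner of SYCE2, had the narrowest, with 0, 1083 and 959 bp in KO, 556, 857 and 607 bp in HxD, and 0, 614 and 973 bp in WT. The Tex12 promoter lies inside Il18, so its coverage cannot be assigned to Tex12 alone. Sycp1, the transverse filament gene, averaged 1633.0 ± 638.3 bp in KO, 1205.7 ± 590.4 bp in HxD and 1848.3 ± 458.1 bp in WT (SD, n = 3 each), and Syce3 1463.0, 1289.3 and 1518.0 bp in the same order of genotypes.

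**Figure D4:**
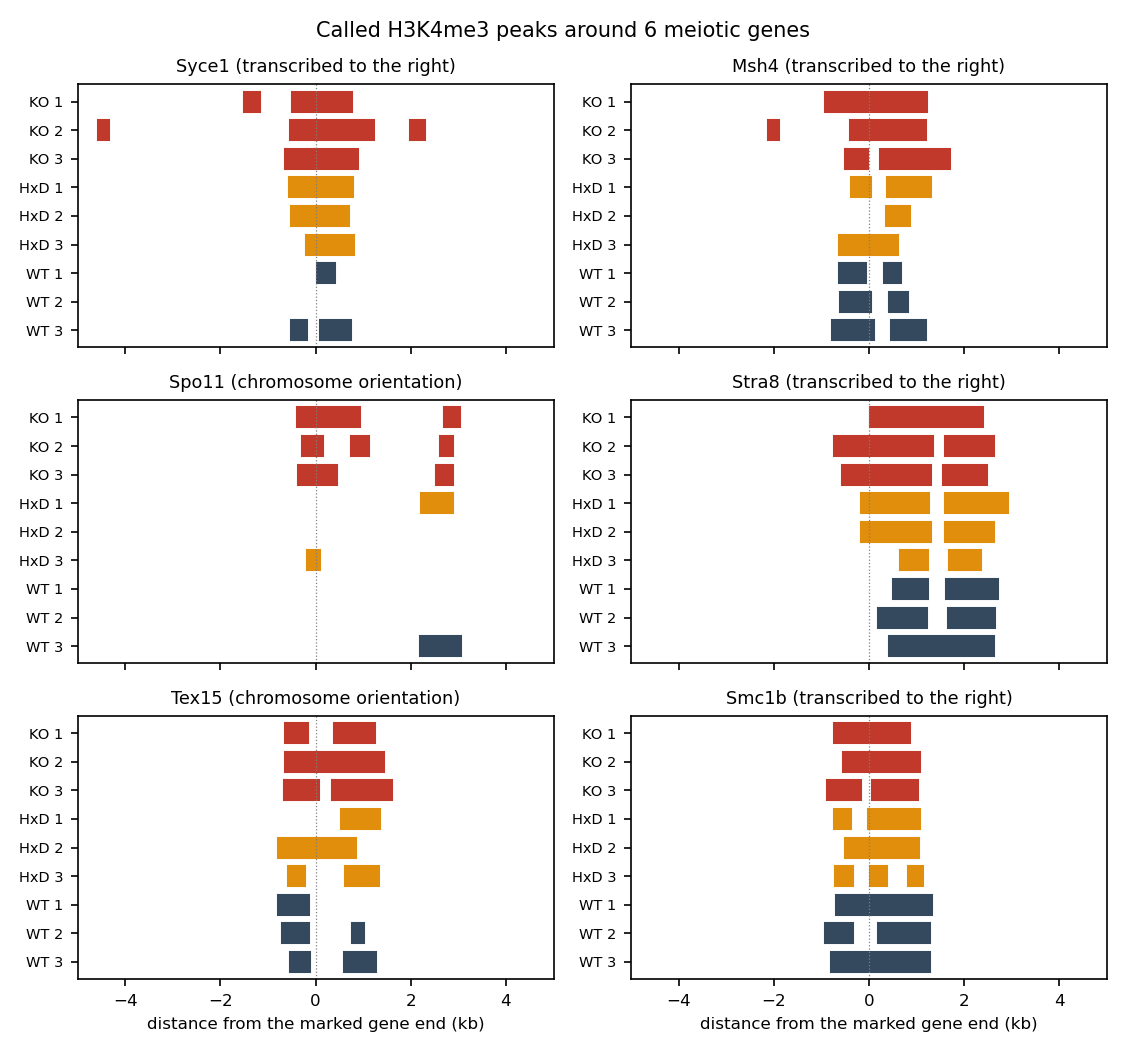
Called peaks (bars) in each of the 9 libraries by distance from the marked gene end (horizontal axis, kb) at 6 genes, 5 where all KO libraries were above all WT libraries and Smc1b, where they were below. At Syce1 the WT rows hold short peaks or none, and at Spo11 the peak at the gene end is in the KO rows and 1 HxD row.

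Among break genes, Spo11, which encodes the enzyme that cuts the DNA, differed between libraries in the presence of a peak. The gene (ID 26972) lies on chromosome 2, 172977379 to 172993576. All 3 KO libraries had a promoter peak, against 1 of 3 in HxD and 0 of 3 in WT. Breadth within 5 kb was 1662, 1103 and 1183 bp in KO, 663, 0 and 272 bp in HxD, and 0, 0 and 856 bp in WT. The 663 bp of HxD replicate 1 and the 856 bp of WT replicate 3 came from a second site, beginning 2226 and 2197 bp from the marked end, on the side of the gene. That site was also present in each KO library, over 275 to 360 bp. The difference between KO and WT was 1030.7 ± 289.9 bp (SE, 95% interval 410.6 to 1650.8 bp), which did not pass (limma, adjusted p = 0.148), and with lists of equal length it was 428.7 bp. KO exceeded HxD by 1004.3 bp (adjusted p = 1 by limma), and HxD minus WT was 26.3 bp. Since Spo11 had a promoter peak in only 4 libraries, it entered the test through the KO libraries, where it is high, and its differences are a description. Prdm9, the H3K4 methyltransferase that places recombination hot spots, was broadly marked, with means of 3169.3 ± 358.1 bp in KO, 2494.0 ± 1016.4 bp in HxD and 2853.0 ± 105.9 bp in WT (SD, n = 3 each). Mei4, which acts with REC114, averaged 1162.0 bp, 1174.0 bp and 1270.0 bp in the same order. Rec114 at its marked end, the broadest value of the group, had 2661, 2543 and 3272 bp in KO, 3110, 2975 and 3004 bp in HxD, and 2759, 2624 and 3578 bp in WT, and Mei1 averaged 1517.7, 1399.0 and 1596.3 bp, both beside a neighbouring gene as described above.

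Among strand exchange genes, Tex15 had more coverage in KO. TEX15 is needed for loading recombinases at breaks, and the gene lies on chromosome 8, 33516689 to 33592503. Breadth was 1351, 2075 and 1964 bp in KO, 838, 1633 and 1067 bp in HxD, and 651, 832 and 1094 bp in WT. KO and WT did not overlap and HxD overlapped both. The difference from WT was 937.7 ± 305.2 bp for KO (SE, adjusted p = 0.2 by limma) and 320.3 bp for HxD (adjusted p = 0.759), neither past the threshold. Without HxD replicate 1 the HxD difference was 491.0 bp, and without HxD replicate 2 it was 93.5 bp. Hsf2bp, a partner of BRCA2, was the broadest, with 2943, 3995 and 3807 bp in KO, 2705, 2759 and 2013 bp in HxD, and 2815, 2621 and 3625 bp in WT. Upstream of the gene end, towards Rrp1b at 1267 bp, lay 2166 to 2683 bp of this in KO, 1748 to 2013 bp in HxD and 1701 to 2206 bp in WT. Every KO library exceeded every HxD library over the whole window (1089.3 bp, unadjusted p = 0.0254, adjusted p = 1 by limma). Mnd1, which works with the product of Psmc3ip to stimulate DMC1, had 619, 1383 and 1096 bp in KO, 886, 395 and 387 bp in HxD, and 379, 1410 and 1691 bp in WT. The HxD values lay within the WT range. Spata22, the partner of MEIOB on single-stranded DNA, had no peak within 1 kb of the marked end in any library and was not tested. Within 5 kb Spata22 had 772, 1270 and 432 bp in KO, 562, 0 and 668 bp in HxD, and 736, 1627 and 989 bp in WT. The same bp lay within 5 kb of its RefSeq start, with a peak within 1 kb of that start in 8 of 9 libraries. Dmc1, the meiotic recombinase, averaged 1860.0, 1539.0 and 1796.7 bp in KO, HxD and WT, Psmc3ip 1965.0, 1785.0 and 1534.0 bp, and Meiob 1804.7, 1512.3 and 1478.3 bp. Of the 6 genes tested, 5 had a higher mean in KO than in WT and 3 in HxD than in WT, and none passed (limma).

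Among crossover genes, Msh5 had the highest mean over the 9 libraries, with 3154, 3036 and 4331 bp in KO, 4152, 3435 and 3625 bp in HxD, and 3138, 2619 and 3884 bp in WT. Its product forms a clamp on recombination intermediates with that of Msh4. More than 2 kb upstream, towards Clic1 at 3246 bp, lay 1740 to 2617 bp of this in KO, 2112 to 2644 bp in HxD and 1522 to 2235 bp in WT, which left 963 to 1714 bp, 1245 to 1508 bp and 1097 to 1649 bp around the gene end. Msh4, singled out after its values were seen, had 2140, 1823 and 1964 bp in KO, 1330, 499 and 1239 bp in HxD, and 937, 1046 and 1603 bp in WT. Its KO libraries were above all other libraries. The difference was 780.3 ± 309.4 bp for KO against WT (SE, unadjusted p = 0.024, adjusted p = 0.277) and 953.0 bp for KO against HxD (unadjusted p = 0.00793, adjusted p = 1, both by limma). Rnf212, which encodes a factor that stabilises crossover sites, was narrow, with 0, 639 and 587 bp in KO, 1378, 694 and 0 bp in HxD, and 742, 991 and 780 bp in WT. All KO libraries lay below all WT libraries (-429.0 bp, adjusted p = 0.56 by limma). Without KO replicate 1 the difference was -224.7 bp, and with lists of equal length the difference was 408.7 bp in the other direction. Rnf212b at its marked end had 1874, 2297 and 3652 bp in KO, 2380, 1029 and 1809 bp in HxD, and 2760, 2206 and 3301 bp in WT. HxD minus WT was -1016.3 bp there (adjusted p = 0.478 by limma), against 671.0 bp at the RefSeq start. A peak within 1 kb of the marked end was present in 3 KO, 0 HxD and 2 WT libraries. Rnf212b thus entered the test without any HxD library, where it is low, and its HxD differences there are a description. With Slc7a8 at 1455 bp, coverage at that end cannot be assigned to Rnf212b alone. Mlh3, a mismatch repair family gene that acts in resolving crossovers, had 1325, 1718 and 1322 bp in KO, 1260, 1268 and 0 bp in HxD, and 880, 356 and 1795 bp in WT. Hfm1, a helicase gene, averaged 1800.3 ± 883.5 bp in KO, 1413.7 ± 471.0 bp in HxD and 1533.3 ± 208.9 bp in WT (SD, n = 3 each).

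No telomere attachment gene passed the test. Majin, whose product anchors telomeres in the inner nuclear membrane, had 0, 755 and 901 bp in KO, 1001, 249 and 597 bp in HxD, and 982, 821 and 1621 bp in WT. The difference of -589.3 ± 311.6 bp for KO (SE, adjusted p = 0.408 by limma) had the smallest p of the genes with less coverage in KO. It was -313.3 bp without KO replicate 1 and -349.5 bp without WT replicate 3. Terb1, which joins the complex to the telomere, had 1739, 1969 and 1777 bp in KO, 2065, 1837 and 1512 bp in HxD, and 1779, 564 and 1656 bp in WT. WT replicate 2 was low and the other libraries lay between 1512 and 2065 bp. Terb2, the link between TERB1 and MAJIN, averaged 1058.0, 1029.0 and 1196.0 bp in KO, HxD and WT. Stra8, the retinoic acid target needed for meiotic entry (chromosome 6, 34920163 to 34939344), had 2361, 3123 and 2793 bp in KO, 2758, 2522 and 1257 bp in HxD, and 1833, 2010 and 2195 bp in WT. All KO libraries were above all WT libraries and HxD overlapped both. The difference of 746.3 ± 409.2 bp for KO (SE, 95% interval -129.0 to 1621.7 bp) did not pass (adjusted p = 0.423 by limma). Stra8 was marked in all 9 libraries, before the retinoic acid signal that is known to switch it on in the testis.

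For KO against WT, limma called 0 of 35 meiotic genes at adjusted p under 0.05, against 0.00625% of the 16000 genes tested. At unadjusted p under 0.05, 3 genes other than Spo11 had more coverage in KO (Syce1, Tex15 and Msh4), against a background of 6.76% in that direction, and 0 had less, against 7.45%. All KO libraries were above all WT libraries at 4 genes other than Spo11 (Syce1, Tex15, Msh4 and Stra8), against 8.49% of genes tested, and below at 2 (Smc1b and Rnf212), against 9.07%. Spo11 met both rules too, but it was among the genes tested only through its KO libraries. It was left out of these counts, while the directions and medians that follow include it. KO had the higher mean at 19 of 35 (54.3%), against 53.3% of all genes, with a median difference of 63.3 bp, against 45.0 bp, so the balance of directions was near that of all genes. The median of the meiotic genes was 342.7 bp with lists of equal length, against 307.67 bp over all genes. Without KO replicate 1, 2 or 3 it was 218.8, -20.5 and -150.0 bp, against 232.5, 6.33 and -88.75 bp over all genes. Without WT replicate 1, 2 or 3 it was -112.8, -2.3 and 138.2 bp, against -24.0, -29.0 and 167.25 bp. Its sign thus rested on single libraries, and the median over all genes moved in the same directions. The half-width of the 95% interval of a gene's difference had a median of 725.0 bp (560.9 bp at Mei4 to 1200.2 bp at Sycp3), before adjustment over all genes. The difference of 1360.7 bp measured at Syce1 was not called. With 3 libraries a group this does not show whether a true difference was missed there. An exact permutation test of 3 against 3 libraries cannot go below p = 0.1.

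For HxD against WT, 0 of 35 were called, against 0% of genes tested. At unadjusted p under 0.05, 1 had more coverage in HxD, Syce1, against 1.75%, and 0 had less, against 9.04%. By breadth at the marked end, all HxD libraries were above all WT libraries at 1 gene, Syce1, against 3.62%, and below at 1, Smc1b, against 13.3%. HxD had the higher mean at 14 of 35 (40%), against 38.9% of all genes, and the median difference was -166.3 bp, against -125.0 bp. The median was 195.0 bp with lists of equal length, and without single libraries it was -268.8 bp (HxD replicate 1), -74.3 bp (HxD replicate 2), 36.2 bp (HxD replicate 3) and -101.5 bp (WT replicate 3). Over all genes the medians were 155.33 bp with lists of equal length and -251.5, -73.58, -49.5 and -10.67 bp without the same libraries. For KO against HxD, 0 of 35 were called, against 0% of genes tested, and Msh4 and Hsf2bp passed an unadjusted p of 0.05, both with more coverage in KO, against 2.69% of genes tested in that direction and 0.219% in the other. All KO libraries were above all HxD libraries at 6 genes other than Spo11 (Rec8, Smc1b, Syce1, Hsf2bp, Msh4 and Mlh3), against 7.19% of genes tested, and below at 0, against 0.713%. Spo11 met both rules for more coverage in KO, with the same limit as before, and is among the 25 of 35 that follow. KO had the higher mean at 25 of 35 (71.4%), against 71.5% of all genes, so the direction was that of the genome as a whole. The comparisons share libraries and are not independent of each other.

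**Figure D5:**
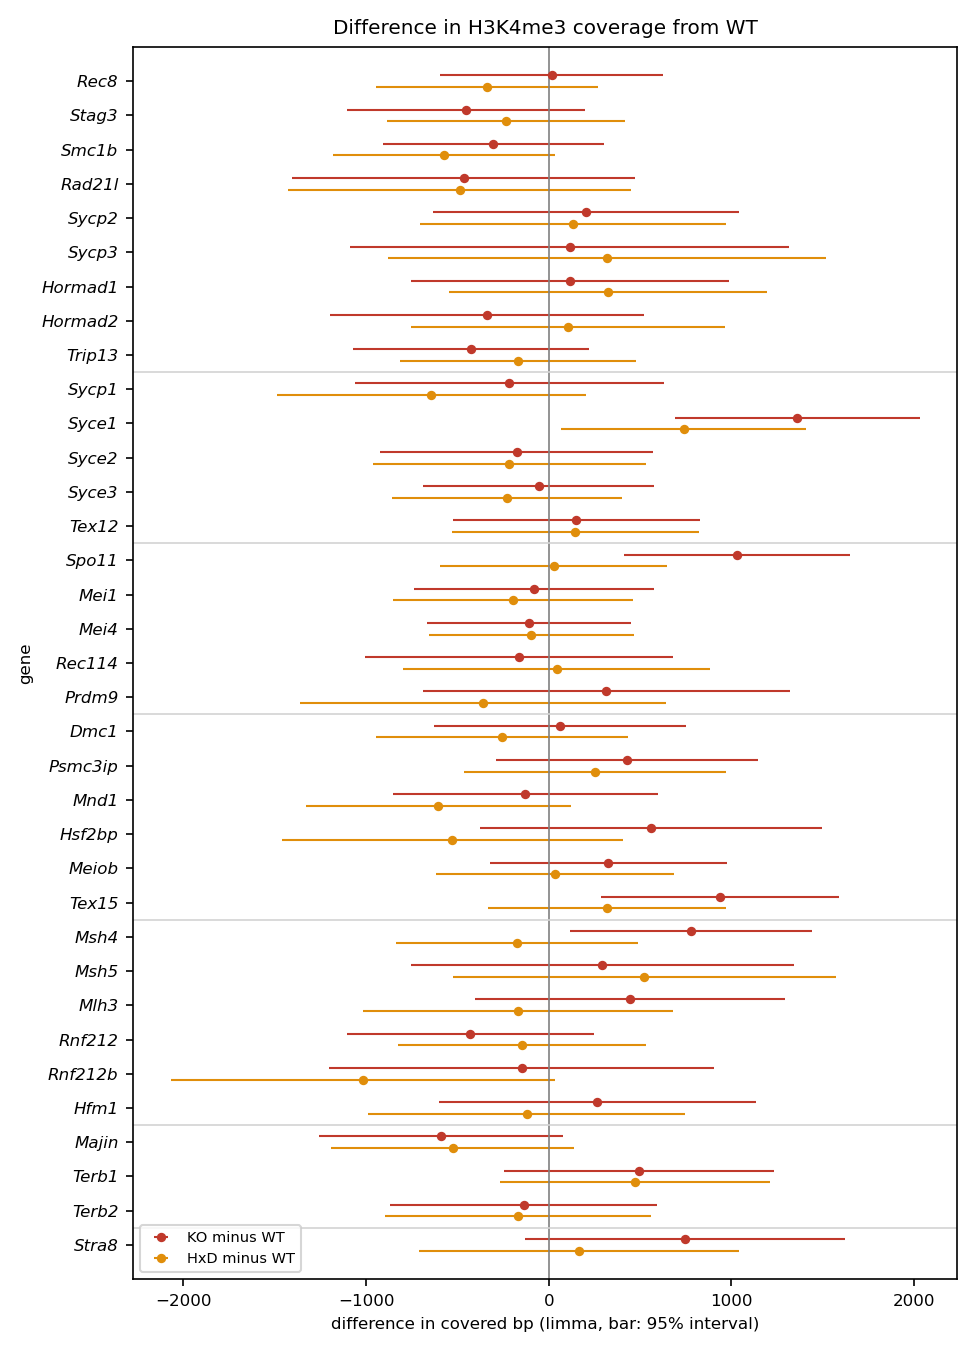
Difference in breadth from WT (horizontal axis, bp) for KO and HxD at the 35 genes tested, grouped by role, with 95% intervals from limma. The KO intervals of Syce1, Tex15, Msh4 and Spo11 (tested only through its KO libraries) and the HxD interval of Syce1 leave out 0, before adjustment over all genes.

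Beyond the 36, 48 other genes with a part in meiosis were matched, and 47 were tested. None was called in any comparison by limma. KO had the higher mean than WT at 33 of 47 and the lower at 14, against 53.3% higher among all genes, with a median difference of 176.0 bp, against 45.0 bp. At unadjusted p under 0.05, 2 had more coverage in KO, against 6.76%, and 0 less, against 7.45%. HxD had the higher mean at 22 and the lower at 25, against 38.9% higher among all genes, with a median of -23.7 bp, against -125.0 bp. At unadjusted p under 0.05, 3 had more coverage in HxD, against 1.75%, and 0 less, against 9.04%. The broadest were Mus81, an endonuclease of crossover resolution, Prr19, a crossover factor, and Zcwpw1, a reader of the marks that PRDM9 places. Mus81 averaged 4100.0 bp in KO, 3936.7 bp in HxD and 4133.7 bp in WT, and Prr19 3747.3, 3000.3 and 3319.0 bp. Zcwpw1 had 3237, 4880 and 3692 bp in KO, 3527, 3859 and 3172 bp in HxD, and 802, 2859 and 2620 bp in WT. Each KO and each HxD library was above each WT library at Zcwpw1, and the same held at Atm. At Bhmg1, Brca1, Mre11a and Nbn each KO library, but not each HxD library, was above each WT library. In the other direction, each HxD library was below each WT library at Rnf8 (1360, 1455 and 1512 bp, against 1590, 2096 and 1919 bp). Over all genes tested the shares above WT were 8.49% for KO and 3.62% for HxD, and those below WT 9.07% and 13.3%. At Zcwpw1 KO minus WT was 1842.7 ± 567.0 bp (SE, adjusted p = 0.177 by limma), the smallest adjusted p of the 47 in that comparison. At Atm it was 1058.7 ± 344.1 bp (SE, adjusted p = 0.2 by limma).

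The authors' fold enrichment at the summit ranked these promoters among all marked promoters of a list, and the ranks moved widely between libraries. For Syce3 the percentile ran from 5.9 to 99.5 over the 9 libraries.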

How the data were processed

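Peaks called by the authors in 9 H3K4me3 CUT&RUN libraries were used, with a separate list for every library. The 9 libraries made with IgG were not analysed here. The submitters' processing notes name the build mm10 and, with no role given, MACS2 2.1.0, Bowtie2 2.5.0, deepTools 3.5.1, Trim Galore, bedtools 2.27.1 and SAMtools 1.16.1. In each list the authors deposited peak coordinates, a linear fold enrichment at the summit (a ratio) and a −log10 q value. The smallest −log10 q was 2.0 to 2.02. No read counts were given, so the depth per library is unknown and peak calls depend on it. No pair of lists shared more than 6 identical peaks, which leaves no copied library.

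Within each list, overlapping peaks of the 19 autosomes and both sex chromosomes were merged. Gene ends came from the RefSeq table of GRCm38.p6, which gives no strand, and RefSeq starts from its promoter table. A linear model on covered bp was fitted to all 9 libraries, 3 per genotype, in limma 3.58.1 (R 4.3.3). It was also run on simulated data with independent noise for each gene and no shift of whole libraries. The real lists differ in overall breadth, so that run does not measure the error rate here. Tests were two-sided, from eBayes with trend, and adjusted by Benjamini-Hochberg over the 16000 coding genes whose promoter had a peak in 3 or more libraries, with a threshold of 0.05. Other steps used Python 3.11.15 with numpy 2.4.6 and pandas 2.3.3. Alternatives were peaks with −log10 q of 5 or more, lists cut to 49624 peaks, a 2 kb window, no filter on genes (all 21887 tested), centred libraries and log2(bp + 100). Further ones were fits of 2 genotypes, a replicate block, single libraries left out and, added after seeing the data, RefSeq starts. For the presence of a peak, 500 bp on either side and an overlap of at least 100 bp were also used. The genes and lists were chosen with earlier results of these data known. Values in every library are given for the 3 genes with the smallest p in each direction in KO and in HxD against WT, for genes lacking a promoter peak in any library and for the broadest and narrowest gene of each role.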

Additional observations from a re-analysis of the deposited data

How the results depend on the processing

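With lists of equal length, 1 of 35 meiotic genes was called for KO against WT, against 1.83% of all genes, 13 had a peak in all 9 libraries, and the median difference from WT was 342.7 bp for KO and 195.0 bp for HxD, against 307.7 and 155.3 bp over all genes. With centred libraries 1 gene was called for KO against WT, against 2.9% of all genes. In both cases the gene was Syce1. No gene was called under any other alternative or without any single library, for KO or HxD against WT or KO against HxD. Without 1 library in turn, the median difference ran between -150.0 and 218.8 bp for KO and between -268.8 and 36.2 bp for HxD, and the genes marked in all remaining libraries between 25 and 27. With a peak required within 500 bp of the marked end, 20 genes were marked in all 9 libraries. At the RefSeq starts, which 30 tested genes had, the medians were 88.8 bp for KO and -156.7 bp for HxD. Over 1248 alternatives of single genes, 97 had the other sign and 2 passed the threshold. Several of these settings leave the difference itself unchanged by design. They are no filter, fits of 2 genotypes, the replicate block and leaving out a library of the genotype not compared. The count of 97 therefore understates how often the sign changed where it could. Replicate numbers did not pair the libraries: deviations of same-numbered libraries correlated between -0.24 and 0.08. With the replicate number as a block, 0 genes were called. The medians of 63.3 bp for KO and -166.3 bp for HxD cannot change under such a block, because each genotype holds every replicate number. The causes were not tested. Depth is unknown, and peak calls limit what can be seen at weak promoters such as Spo11, Tex12 and Rnf212.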
